A study of Mus musculus with 2 samples.

Results

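The cells described here are the macrophages of TSA mammary tumors that score highest for 5 genes, among them Mmp12, F13a1, Hmox1 and Cbr2. Each cell was scored as the mean, over these 5 genes, of the natural log of 1 plus its molecules of the gene per 10000 molecules of the cell, and the top 17% of all cells of both libraries pooled were taken. Of these 1054 cells, 788 also had C1qa, C1qb and C1qc at 0.2% or more of their molecules, no molecule of Cd3e (a T cell receptor subunit) or Ncr1 (an NK cell receptor), and fewer than 3 molecules of the cell cycle genes Birc5, Top2a and Ube2c. These 788 selected macrophages, of 6198 cells in all, comprised 409 of 2922 cells from untreated mice and 379 of 3276 cells from mice given nicotinamide (NAM). The measured levels of the 5 genes chose the cells, so those levels are given as a description. The 2832 cells that met the same C1q, lymphocyte and cell cycle conditions but scored below the cut, 1301 untreated and 1531 NAM, are called other C1q cells.

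TSA is a mouse mammary adenocarcinoma cell line, here grown under the skin of Balb/c mice. Both groups carried established tumors; the NAM group drank water with 0.5% NAM, an amide form of vitamin B3, for 10 days, and the untreated group did not. CD45+ leukocytes of 3 tumors per group were pooled, enriched on magnetic beads and sequenced with a droplet 3′ assay that counts unique molecular identifiers (UMIs), 1 library per group. With 1 library per group no difference between the groups could be tested: treatment, pool, chip channel and sequencing of a library cannot be told apart, and every interval below covers counting error only. Summed levels are UMIs of a gene per 1000000 UMIs of the summed cells (CPM). A sum cannot tell fewer expressing cells from less RNA per cell.

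Tumor macrophages range between states that present antigen, with high MHC class II, and states linked to tissue repair, low oxygen and iron handling. Hmox1, which breaks down heme, is a classical gene of the second kind. Mmp12 is an elastin-degrading protease of macrophages, F13a1 is the catalytic subunit of a clotting transglutaminase, and Cbr2 is a carbonyl reductase common in resident-type macrophages.

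Outside the selection rule the cells carried a macrophage profile. All 9 macrophage markers, among them Adgre1, Csf1r, Cd68, Mertk, Fcgr1, Mrc1, Apoe and Cd14, had a UMI in at least 10% of the cells of each library, from 14.0% of NAM cells for Mertk, a receptor for dying cells, to every cell for Apoe. Markers of lymphocytes were low. The 6 T cell markers, none of them used by the rule, summed to 20.0 CPM in untreated and 15.5 CPM in NAM cells, against 2712 and 3585 CPM in cells with Cd3e or Ncr1 and low C1q (lymphocyte cells below), and the 4 B cell markers to 8.20 and 6.34 CPM. The 6 neutrophil markers summed to 122 and 72.8 CPM, against 51.0 and 88.7 CPM in other C1q cells and 24.5 and 80.8 CPM in lymphocyte cells, so the untreated sum was above both. Among them S100a8 stood at 50.7 CPM in untreated selected macrophages against 9.80 CPM in other C1q cells, while Ly6g, the defining one, was at 0 in all 3 classes of both libraries; the part of these markers in the results was not tested. The 9 macrophage markers summed to 23454.4 and 22623.5 CPM in selected macrophages and 21692.3 and 21219.4 CPM in other C1q cells. They bear the label macrophage out but do not set the selected macrophages apart. The selection describes a range and not a type. The cut lay at a score of 0.700, and the highest score outside it was 0.698. Within 0.05 above the cut lay 67 selected macrophages, and 48 other C1q cells lay within 0.05 below it. Median depth was 9867 UMIs per untreated and 9608 per NAM selected macrophage, 9157 and 9329 per other C1q cell, and 4825 and 4505 per lymphocyte cell. The libraries shared 11 cell barcodes, carried by 2 untreated and 1 NAM selected macrophages.

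Selected macrophages made up a smaller share of the NAM library. They were 14.0% of untreated cells (95% exact Clopper-Pearson interval 12.8 to 15.3) and 11.6% of NAM cells (10.5 to 12.7), a log2 ratio of NAM over untreated of -0.27 (-0.46 to -0.09). As a share of all C1q cells that met the conditions they were 23.9% (21.9 to 26.01) untreated and 19.8% (18.1 to 21.7) NAM. Above the score cut lay 524 of 2922 untreated and 530 of 3276 NAM cells, and the other conditions left out 115 and 151 of them. C1q was too low in 69 and 114 of those above the cut, so the lower share is not only one of high-scoring cells. The share of selected macrophages was lower in NAM under all 12 other ways of choosing the cells. But the interval reached 0 with a cut at the top 10%, a cut within each library and the score without F13a1 or Cbr2. These ways reuse the same cells and counts, so they are no independent support. A cut within each library fixes the share above it at 17% in both, so only the other conditions can differ there.

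Genes of the rule did not fill the cells evenly, and they differed between the libraries in both directions. Mmp12 stood at 715 CPM in untreated and 1533 CPM in NAM selected macrophages, with a UMI in 33.7% and 52.2% of the cells. The protease was thus undetected in most untreated selected macrophages, and the 5 cells with most of it held 37.3% of its untreated and 26.7% of its NAM UMIs. Hmox1 was spread over most cells, at 908 and 861 CPM with a UMI in 87.8% and 88.7% of the cells. F13a1 and Cbr2 were lower in NAM: F13a1 stood at 428 and 266 CPM with a UMI in 72.9% and 62.5% of the cells, and Cbr2 at 318 and 122 CPM with a UMI in 55.0% and 37.7%. In lymphocyte cells, which should lack these genes, a UMI was found in 0.32% (Cbr2, NAM) to 8.76% (Hmox1, untreated) of the cells at about the depth given above. With every cell thinned to 3000 UMIs the shares of selected macrophages fell to 22.5% and 40.9% for Mmp12, 65.8% and 62.8% for Hmox1, 54.3% and 42.7% for F13a1, and 39.1% and 22.96% for Cbr2, and of these each gene but Hmox1 kept its order of the libraries.

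**Figure D1:**
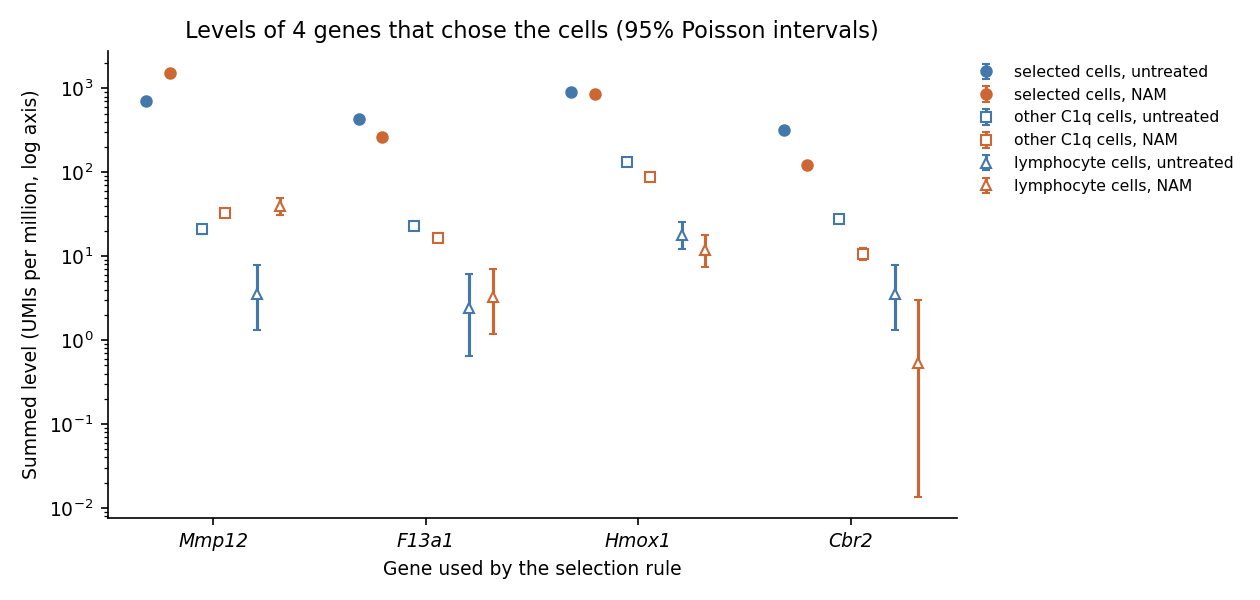
Summed level (CPM, log axis) of 4 genes used by the selection rule in selected cells (circles), other C1q cells (squares) and lymphocyte cells (triangles) of the untreated (blue) and NAM (orange) library; bars are 95% Poisson intervals, smaller than the marker where not visible. Mmp12 is higher in NAM selected cells (1533 against 715 CPM), and F13a1 and Cbr2 lower.

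To read each of these genes in cells that its own level had not chosen, the cells were chosen again by the other 4 genes. Each was then still higher in the chosen cells than in the rest. The log2 ratio of the chosen over the rest was 2.83 (2.72 to 2.94) untreated and 3.98 (3.89 to 4.07) NAM for Mmp12. For F13a1 it was 2.84 (2.70 to 2.98) and 3.10 (2.92 to 3.27), for Hmox1 2.08 (2.00 to 2.16) and 2.41 (2.33 to 2.49), and for Cbr2 2.14 (2.00 to 2.28) and 2.25 (2.02 to 2.48). The 5 genes were chosen with results of these data known, so these ratios are a description too. NAM over untreated within the cells so chosen, the log2 ratio was 1.38 (1.31 to 1.46) for Mmp12, -0.15 (-0.22 to -0.07) for Hmox1, -0.67 (-0.79 to -0.55) for F13a1 and -1.46 (-1.64 to -1.28) for Cbr2.

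Within the selected macrophages F13a1 and Cbr2 went apart from Mmp12. Of the 409 untreated cells, 217 had a UMI of 3 of the 5 genes and 23 of all 5, and of the 379 NAM cells 159 and 18. Across cells, on the ln scale of the score, F13a1 and Cbr2 rose together with a Pearson r of 0.43 untreated (409 cells) and 0.46 NAM (379 cells), whereas Mmp12 and Cbr2 had r of -0.37 and -0.40. These cells share a library and a cut on the sum of the 5 genes, and a cut on a sum by itself pushes its parts apart. In the untreated library a Cbr2 UMI was found in 66.4% of the selected macrophages with F13a1 and in 24.3% of those without it, and in 31.9% of those with Mmp12 against 66.8% of those without it.

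Because F13a1 and Cbr2 went together and apart from Mmp12, the stretches just before their RefSeq gene starts (GRCm38.p6, 120 bases, 5′ to 3′ on the gene's strand) are shown. Capitals mark matches on either strand to GAGGAA (the core bound by the myeloid factor PU.1), TTGCNNAA (C/EBP) or TGANTCA (AP-1), with no overlap between them in these windows. The first Mmp12 line is chr9:7347254-7347373 and the second chr9:7344277-7344396 (both plus strand), F13a1 is chr13:37050245-37050364 (minus strand) and Cbr2 is chr11:120732022-120732141 (minus strand).
Mmp12, first line: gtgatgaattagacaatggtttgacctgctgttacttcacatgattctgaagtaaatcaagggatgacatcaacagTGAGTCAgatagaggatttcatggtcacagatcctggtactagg
Mmp12, second line: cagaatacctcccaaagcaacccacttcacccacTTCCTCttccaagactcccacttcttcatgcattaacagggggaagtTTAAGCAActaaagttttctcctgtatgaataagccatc
F13a1: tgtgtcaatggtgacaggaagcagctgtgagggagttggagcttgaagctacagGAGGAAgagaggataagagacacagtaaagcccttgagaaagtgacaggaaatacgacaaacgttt
Cbr2: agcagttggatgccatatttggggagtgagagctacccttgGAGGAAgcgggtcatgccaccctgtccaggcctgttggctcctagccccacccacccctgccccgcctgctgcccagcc
The first Mmp12 window lies downstream of the second, before a later start of the gene, and has an AP-1 match that begins 44 bases before that start and no other match. The second has no AP-1 match, but a GAGGAA match 86 bases and a C/EBP match 39 bases before its start. F13a1 and Cbr2 have GAGGAA matches 66 and 79 bases before theirs, so GAGGAA occurs before all 3 genes. Of 32851 windows of this length before mouse gene starts, 3.41% held TGANTCA, 11.6% GAGGAA and 4.15% TTGCNNAA. A further F13a1 start, chr13:37049214-37049333, held none of the 3 motifs, and a match describes letters only.

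Beyond the 5 genes, the selected macrophages were compared with the other C1q cells. The comparison was made within each library, and a gene counted as higher or lower where it had 100 UMIs or more over both sums, a fold of 1.5 or more and an interval that left out 0 in each library; the genes of the selection rule were not counted. By that measure 325 of 7725 genes were higher (4.21%) and 200 were lower (2.59%). Without the 5 cells of each sum with most UMIs of a gene, an alternative that turned the balance, 240 were higher and 406 lower. This alternative takes 5 cells from sums of 409 and 379 cells as from sums of 1301 and 1531 cells. It tends by design to lower the selected macrophages more. Of the 538 genes higher in the untreated library 325 were also higher in the NAM library, of the 406 lower ones 200 were also lower, and 2 genes were opposite. These cells were chosen on their own counts, so the ratios describe the choice and test nothing.

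Genes of low oxygen and sugar breakdown stood above the other C1q cells. Of 31 measured genes of hypoxia and glycolysis, 23 were higher in both libraries and none was lower, and the median log2 ratio of the list was 0.81 untreated and 0.95 NAM against -0.03 and -0.04 over all genes. Adm, the vasodilator peptide adrenomedullin, stood at 25.3 CPM in untreated and 47.5 CPM in NAM selected macrophages, and the ratios over other C1q cells were 4.12 and 4.69. Egln3, an oxygen sensor, had ratios of 2.73 and 2.62, Ankrd37, a hypoxia-induced ankyrin protein, of 2.08 and 2.46, and Bnip3, which marks mitochondria for removal, of 1.65 and 1.98. The glycolytic enzymes Ldha (0.66 and 0.81), Pgk1 (0.93 and 1.30) and Eno1 (0.74 and 0.95) and the glucose transporter Slc2a1 (1.15 and 1.51) were higher too. By contrast none of the 36 genes of oxidative phosphorylation was called in either direction (medians -0.05 and -0.12).

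Genes of alternative activation and resident-type macrophages were higher as well. Of 19 measured, 11 were higher in both libraries and none was lower, with medians of 1.21 untreated and 0.75 NAM. Cd163, the receptor that takes up hemoglobin bound to haptoglobin, stood at 104 CPM in untreated and 44.7 CPM in NAM selected macrophages against 10.3 and 8.97 CPM in other C1q cells, ratios of 3.34 (3.05 to 3.64) and 2.32 (1.98 to 2.65). Cd163 had a UMI in 30.3% and 20.3% of selected macrophages, 6.15% and 4.83% of other C1q cells and 0.73% and 0.64% of lymphocyte cells. Folr2, a folate receptor of resident macrophages, stood at 515 and 375 CPM (ratios 1.62 and 1.67), Mrc1, the mannose receptor, at 718 and 402 CPM (1.45 and 0.98), and Pf4, a platelet-type chemokine, at 2198 and 2662 CPM (1.67 and 2.21). Fcna, a lectin that starts complement, had ratios of 2.58 and 2.27. Lyve1, a hyaluronan receptor, stood at 38.6 and 4.31 CPM in selected macrophages, with 3 UMIs in the other C1q cells of each library.

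Matrix and repair genes formed a further group. Of 20 measured genes of matrix and wound repair, 11 were higher and 1, Tgfbi, was lower (ratios -0.95 and -1.05), and of 14 matrix proteases and inhibitors 8 were higher and none lower. Fn1, fibronectin, stood at 255 CPM untreated and 334 CPM NAM against 39.2 and 41.3 CPM in other C1q cells, ratios of 2.70 (2.54 to 2.86) and 3.01 (2.87 to 3.16). Spp1, osteopontin, stood at 1324 and 1627 CPM against 268 and 228 CPM (2.31 and 2.83), but 39.0% and 34.9% of its UMIs lay in 5 cells. Spp1 had a UMI in 49.1% and 53.6% of selected macrophages against 39.8% and 37.6% of lymphocyte cells. With every cell thinned the shares were 34.7% and 35.4% against 34.3% and 30.5%. In other C1q cells the thinned shares were 25.3% and 22.99%, below those of lymphocyte cells. The thinned share of selected macrophages was thus near that of lymphocyte cells in the untreated library. It was above that of other C1q cells in both. The summed level of Spp1 in lymphocyte cells was 1182 CPM untreated and 413 CPM NAM, above that of other C1q cells in both libraries. Lymphocyte cells thus set no common background for this gene, though the untreated level of selected macrophages is near theirs. Among the proteases, Adam8 had ratios of 1.84 and 2.18 and Mmp13, collagenase 3, of 1.24 and 1.87, and the inhibitors Timp1 (1.82 and 1.59) and Timp2 (1.01 and 0.93) were higher beside them. Other genes at the top of the ranking over both libraries were Ccl6, a chemokine of myeloid cells, at 2748 and 1882 CPM (2.63 and 2.61), Hal, which breaks down histidine (2.97 and 2.57), Pmp22, a membrane protein best known from myelin (2.48 and 2.61), Mt2, a metallothionein (2.21 and 2.17), and Rgcc, a cell cycle regulator induced by complement (1.99 and 2.41).

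Heme and antioxidant genes other than Hmox1 followed only in part. Of 16 measured genes of heme and iron handling 3 were higher (Cd163, Lrp1 and the heme transporter Slc48a1 with ratios of 0.75 and 1.04), and the ferritin chains Fth1 and Ftl1, which store iron, had ratios of 0.42 and 0.75 and of 0.55 and 0.69. Of 17 measured antioxidant genes controlled by Nrf2, 2 were higher, among them Gclm, a subunit of the enzyme that starts glutathione synthesis (1.06 and 0.95). Of 14 measured genes of arginine, nitric oxide and polyamine use none was called in both libraries. Slc7a2, an arginine transporter that was not among these 14 because it had under 100 UMIs in the untreated sums, stood at 14.5 CPM untreated and 27.7 CPM NAM against 2.51 and 3.06 CPM in other C1q cells.

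MHC class II genes were lower in the selected macrophages. Of 9 measured MHC class II genes 8 were lower in both libraries, with medians of -1.49 untreated and -1.38 NAM. Cd74, the invariant chain that guides class II molecules, stood at 9108 CPM untreated and 13001 CPM NAM against 25637 and 30553 CPM in other C1q cells, ratios of -1.49 and -1.23. The class II chains H2-Aa (-1.67 and -1.38), H2-Ab1 (-1.63 and -1.41) and H2-Eb1 (-1.70 and -1.45) and the peptide loader H2-DMb1 (-1.60 and -1.46) gave like values; reads of H2-DMb1 and its near copy H2-DMb2 may have been split between them. Of 30 measured genes of the interferon gamma response 14 were lower and none higher (medians -0.57 and -0.86), with the T cell chemokine Cxcl9 at 136 and 167 CPM against 310 and 467 CPM (-1.19 and -1.49). MHC class I and peptide loading held no gene called in both libraries of 23 measured (medians -0.32 and -0.38).

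Some monocyte genes were low in the selected macrophages. Of 17 measured 4 were lower and 1, Klf4, was higher, while the medians of the list were above 0, at 0.25 untreated and 0.14 NAM. Ccr2, the receptor that brings monocytes out of the marrow, had ratios of -1.44 and -1.55, and Ly6c2, the classical monocyte marker, of -1.89 and -1.94. The other genes given here were the lowest of the ranking over both libraries and form no list. Cxcl13, a B cell chemokine, stood at 19.1 and 4.06 CPM against 109 and 117 CPM in other C1q cells (-2.51 and -4.85), with 86.1% of its untreated UMIs in 5 selected cells. Siglece, a sialic acid receptor (-2.17 and -2.57), Dnase1l3, a DNase (-2.22 and -1.73), Cd207, the lectin langerin (-2.65 and -1.83), Clec4b1, a C-type lectin of dendritic cells (-2.41 and -2.04), Klrk1, an activating receptor of NK cells (-1.87 and -1.89), and the membrane channels Tmem176a (-1.75 and -1.95) and Tmem176b (-1.74 and -2.11) followed, as did Adgrg5, an adhesion receptor (-2.28 and -1.86).

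**Figure D2:**
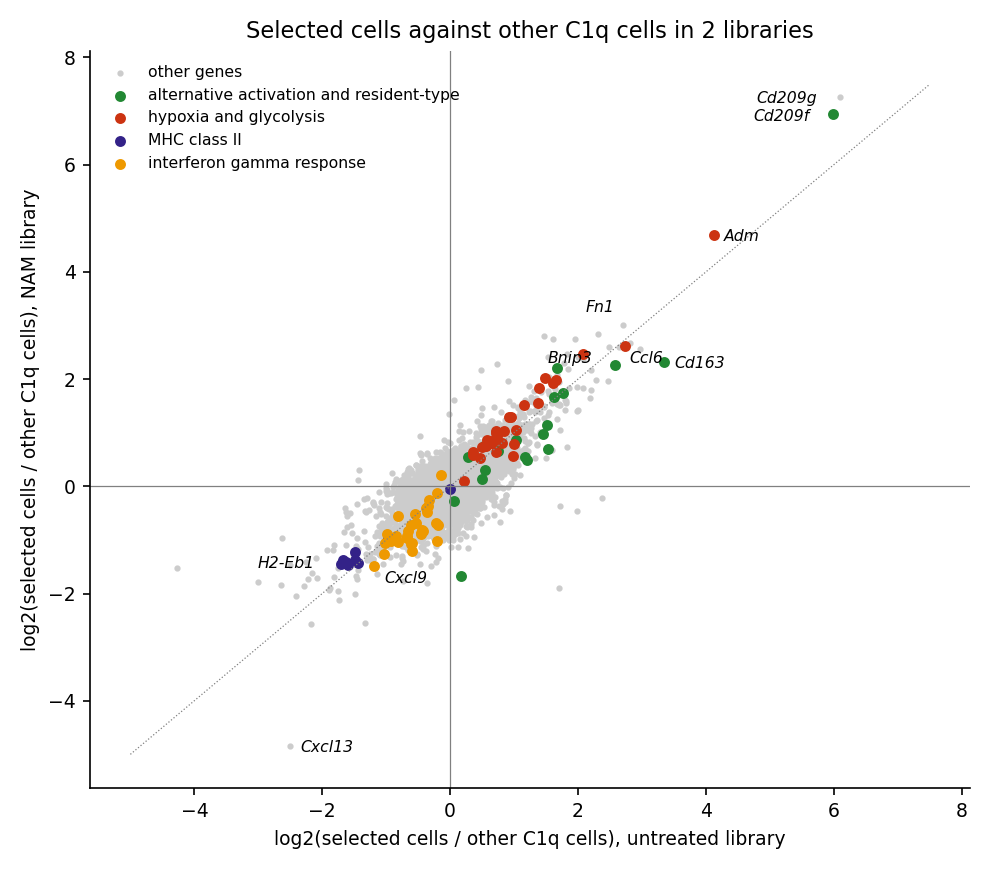
Log2 ratio of selected cells over other C1q cells for genes with 100 UMIs or more in each library, untreated on the x axis and NAM on the y axis; colors mark gene lists, gray points are other genes and the dotted line is equality. Hypoxia and glycolysis genes lie above 0 in both libraries and 8 of 9 MHC class II genes lie well below it, with H2-Eb1 at -1.70 and -1.45.

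Both trends ran along the whole score and not only at the cut. The summed MHC class II level was 63217 CPM untreated and 70299 CPM NAM in C1q cells with a score of 0 and fell in every step to 11343 and 19883 CPM in cells scoring 1.5 or more. The hypoxia and glycolysis genes rose in every step, from 7864 to 18956 CPM untreated and from 8256 to 23980 CPM NAM. The interferon gamma response list went from 4828 to 2238 CPM and from 7118 to 2508 CPM. The bins held 92 to 708 cells. Resident-type genes rose to 22746 CPM untreated in cells with scores of 1 to 1.5 and stood at 21001 CPM above that, while in NAM they stood at 14192 and 14007 CPM.

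**Figure D3:**
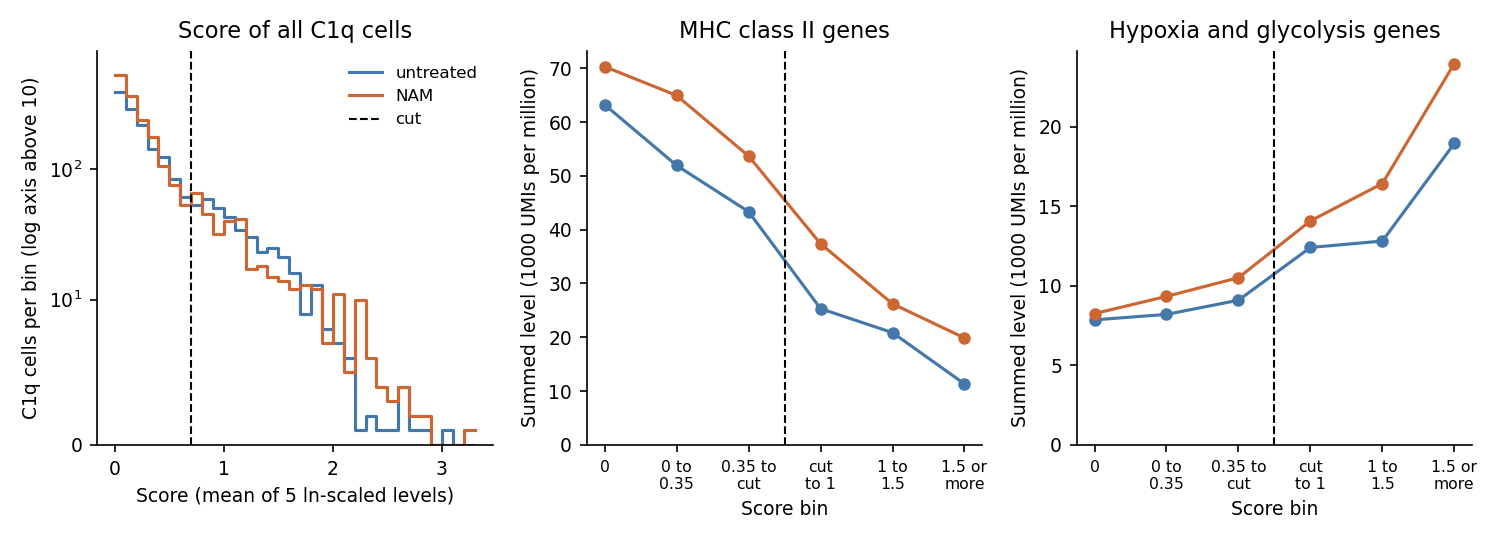
Left, number of C1q cells per score bin of width 0.1 in the untreated (blue) and NAM (orange) library, with the cut at 0.700 dashed (log axis above 10). Middle and right, summed level in 1000 CPM of MHC class II genes and of hypoxia and glycolysis genes in 6 score bins; class II falls from 63217 to 11343 CPM untreated and hypoxia and glycolysis rises from 7864 to 18956 CPM.

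The selected macrophages were divided into a Mmp12 side and a F13a1/Cbr2 side, by whether the ln-scaled level of Mmp12 was above or below the mean of those of F13a1 and Cbr2, a division chosen after the values were seen. The Mmp12 side held 104 of 409 selected macrophages in the untreated library (25.4%, exact interval 21.3 to 29.9) and 174 of 379 in the NAM library (45.9%, 40.8 to 51.1). The F13a1/Cbr2 side held 271 untreated (66.3%, 61.4 to 70.8) and 178 NAM cells (47.0%, 41.9 to 52.1), and 34 and 27 cells, nearly all without a UMI of the 3 genes, lay on neither side. Median depth was 10828.5 and 10148.5 UMIs on the Mmp12 side and 9130 and 9241.5 UMIs on the F13a1/Cbr2 side. Within 0.25 of equality lay 4 untreated and 5 NAM cells of the Mmp12 side and 1 and 9 of the F13a1/Cbr2 side.

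**Figure D4:**
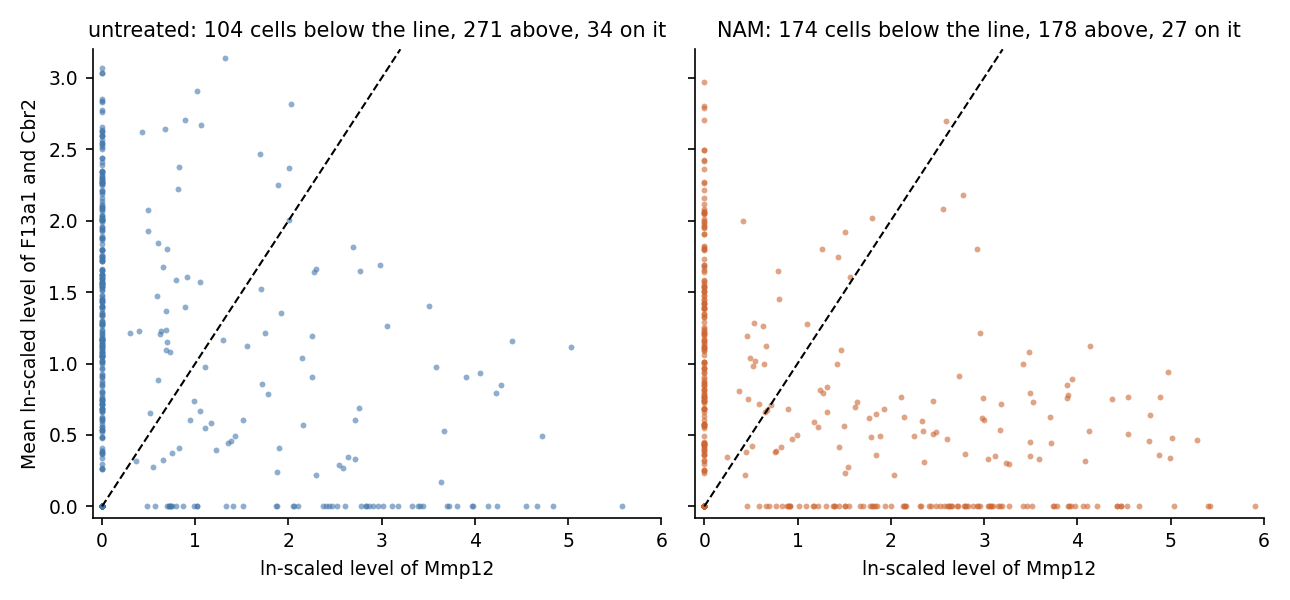
Each point is a selected cell, placed by its ln-scaled level of Mmp12 (x axis) and the mean of those of F13a1 and Cbr2 (y axis), in the untreated (left) and NAM (right) library; the dashed line is equality. Of 409 untreated cells 104 lie below the line, and of 379 NAM cells 174 do.

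The sides carried different gene groups. In both libraries 112 of 3588 genes were higher on the Mmp12 side (3.12%) and 156 were lower (4.35%). Of 29 measured hypoxia and glycolysis genes 22 were higher on the Mmp12 side and 1, Ier3, was lower (ratios -0.80 and -0.81), with medians of 1.05 untreated and 0.70 NAM. Tnfrsf9, the costimulatory receptor 4-1BB, stood at 102 CPM untreated and 265 CPM NAM on that side against 17.5 and 15.8 CPM on the other. Mmp13 stood at 279 and 421 CPM against 32.2 and 71.0 CPM, Spp1 at 2457 and 2087 CPM against 660.1 and 1081 CPM, and Lgals3, the lectin galectin-3, at 6603 and 7519 CPM against 1609 and 2220 CPM. The glucose transporter Slc2a1 had ratios of 1.51 and 1.60. Of 26 type I interferon response genes 7 were higher on that side and 2 lower, with ratios of 1.94 and 1.92 for Ifitm1, 1.64 and 2.23 for Ifit1 and 1.55 and 1.45 for Rsad2.

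Resident-type genes lay on the F13a1/Cbr2 side. Of 17 measured 14 were higher there in both libraries and none was lower, with medians of Mmp12 over F13a1/Cbr2 side of -1.58 untreated and -1.45 NAM. Cd163 stood at 156 and 85.6 CPM on the F13a1/Cbr2 side against 20.1 and 11.4 CPM on the other, and Mrc1 at 998 and 627 CPM against 285 and 216 CPM. Ccl8, a chemokine for monocytes and eosinophils, stood at 16152 and 11295 CPM against 3239 and 3889 CPM. Clec10a, a galactose lectin (ratios -2.53 and -1.92), Ltc4s, which makes leukotriene C4 (-2.77 and -2.91), and the complement component C4b (-2.57 and -2.14) gave the same direction, as did Npl, which degrades sialic acid (-2.45 and -2.43), and Rcn3, a calcium-binding protein of the secretory path (-4.30 and -2.10). The lectins Cd209f and Cd209g, near copies whose reads may have been split, lay mostly on that side. Cd209g had 157 untreated and 368 NAM UMIs there against 0 and 1 on the other, in few cells: either gene had a UMI in 7.33% and 4.75% of all selected macrophages. MHC class II did not divide the sides by the call (none of 8 measured genes, medians 0.17 and 0.35 toward the Mmp12 side).

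NAM was set against untreated in all selected macrophages. There 97 of 5989 genes were higher in the NAM library (1.62%) and 313 were lower (5.23%), and among other C1q cells 95 of 8803 were higher and 334 lower. Within the Mmp12 side alone 105 were higher and 117 lower, and within the F13a1/Cbr2 side 98 and 232. The median gene stood at -0.02 in each class.

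Resident-type genes were the list with the most genes lower in NAM. Of 20 measured, none was higher and 12 were lower. The median of the list was -0.71 in the selected macrophages and -0.36 for the same genes in other C1q cells. Pf4 of this list rose from 2198 to 2662 CPM, a ratio of 0.28 (0.24 to 0.32), under the fold that was counted. Cd163 fell by 1.22 (interval -1.48 to -0.97), and the difference from other C1q cells, where it had -0.20, was -1.02 (-1.46 to -0.59). Mrc1 had -0.84 (-0.93 to -0.75) against -0.37, Clec10a -1.42 (-1.76 to -1.09) against -0.59, Ccl8 -0.61 (-0.63 to -0.59) against 0.01, and Lyve1 -3.16 (-3.98 to -2.44), with 160 UMIs in untreated and 17 in NAM selected macrophages. Igf1, a growth factor of resident macrophages, was lower in both classes alike (-1.42 and -1.38), as was Maf, a transcription factor of such cells (-0.70 and -0.62). Retnla, a secreted protein of alternative activation, fell from 46.6 to 12.2 CPM, but 83.9% of its untreated UMIs lay in 5 cells, and Ednrb, an endothelin receptor, fell from 46.1 to 6.34 CPM. The ratios were also taken within the sides, which levels of rule genes define; the part of the side shares in the ratios over all selected macrophages was not tested. Within the Mmp12 side the median of the list was -0.16 and within the F13a1/Cbr2 side -0.59. Within that last side Mrc1 had -0.67 (-0.77 to -0.57), Cd163 -0.87 (-1.15 to -0.60), Ccl8 -0.52 (-0.54 to -0.49) and Lyve1 -2.65 (-3.47 to -1.93). The lectins Cd209g (1.77, 1.49 to 2.04) and Cd209f (0.94, 0.63 to 1.26) rose within the F13a1/Cbr2 side, in few cells.

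Heat shock genes included some that were lower too. Of 20 measured heat shock and chaperone genes 6 were lower and none higher. Hspa1a, an inducible HSP70, stood at 1146 CPM untreated and 365 CPM NAM, a ratio of -1.65 (-1.73 to -1.56) in selected macrophages and -1.59 in other C1q cells. Hspb1, a small heat shock protein, stood at 94.8 and 8.88 CPM (-3.42), and at 40.2 and 5.03 CPM in other C1q cells. Reads of Hspa1a and its near copy Hspa1b (-2.41) may have been split between them. Of 23 measured cytokines and regulators 1 was higher and 2 were lower (median 0.11), and of 20 chemokines and receptors none was higher and 1 was lower (median -0.12), so the secreted factors named next are single genes. Il10, an anti-inflammatory cytokine, stood at 86.8 and 33.2 CPM, a ratio of -1.39 (-1.68 to -1.09) against -1.66 in other C1q cells, and had a UMI in 24.4% and 10.6% of selected macrophages (12.0% and 5.805% when thinned) and in 4.01% and 3.22% of lymphocyte cells. Cxcl1, a neutrophil chemokine (-1.08 and -1.14), Areg, an epithelial growth factor (-1.41 and -1.20), and Hbegf, another ligand of the EGF receptor (-0.94 and -0.80), fell in both classes. Lepr, the leptin receptor, stood at 57.6 CPM untreated and 2.54 CPM NAM, a ratio of -4.51 (-5.58 to -3.60) in selected macrophages and -3.19 (-3.59 to -2.81) in other C1q cells, but 83.3% of its untreated UMIs lay in 5 selected cells and only 7.58% of the cells had one. Saa3, an acute phase protein, fell from 181 to 19.8 CPM with 80.5% of its untreated UMIs in 5 cells, and Gm12840, a transcript without a named role, had -1.61 (-2.04 to -1.19).

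**Figure D5:**
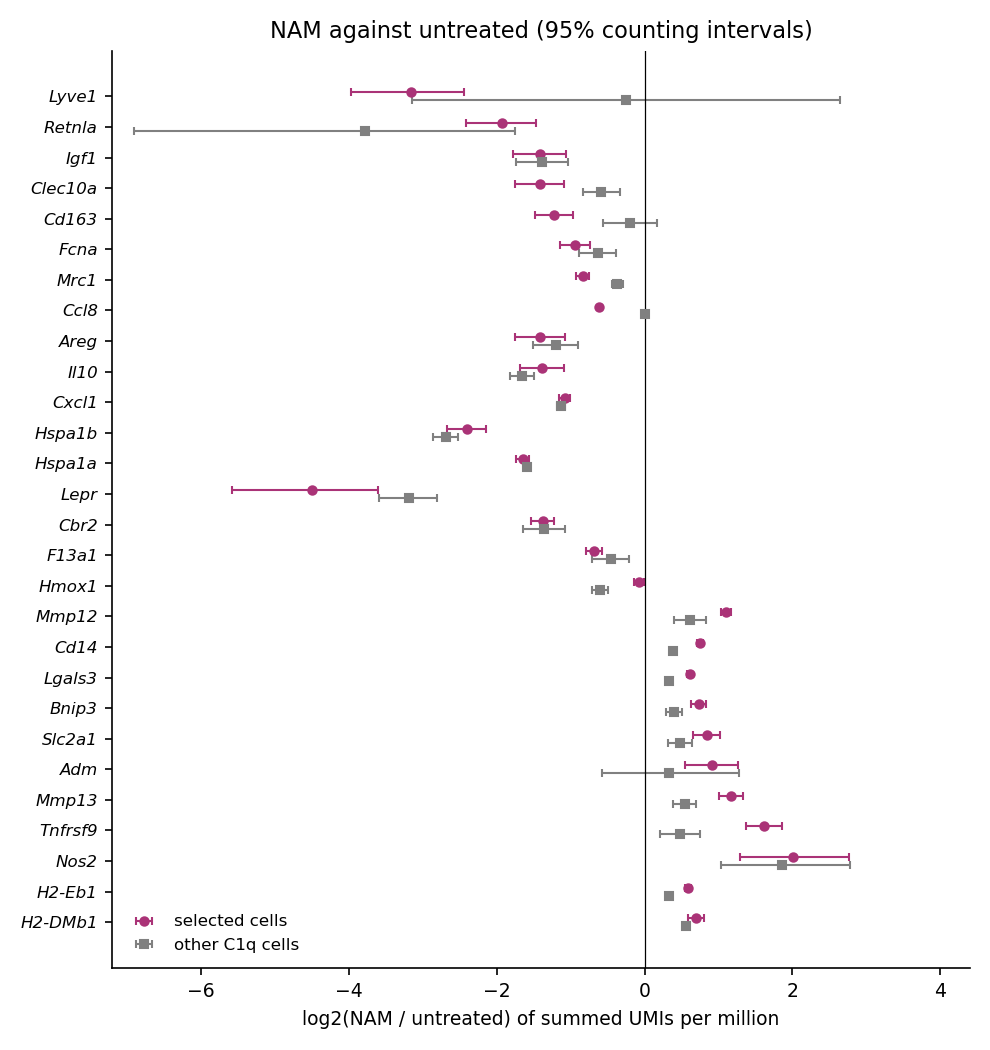
Log2 ratio of NAM over untreated of 28 genes in selected cells (purple circles) and other C1q cells (gray squares) with 95% counting intervals. Il10, Hspa1a and Igf1 overlap between the classes (-1.39 and -1.66, -1.65 and -1.59, -1.42 and -1.38), while Cd163 (-1.22 and -0.20) and Tnfrsf9 (1.62 and 0.47) do not.

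Tnfrsf9 and Mmp13, high on the Mmp12 side, were higher in the NAM library. Tnfrsf9 rose from 45.3 to 139 CPM, a ratio of 1.62 (1.38 to 1.86) against 0.47 in other C1q cells, and the ratio was 1.38 (1.09 to 1.68) within the Mmp12 side and -0.15 (-0.88 to 0.56) within the F13a1/Cbr2 side. Mmp13 rose from 107 to 241 CPM, 1.17 (1.01 to 1.34) in all selected macrophages, 0.59 (0.41 to 0.78) within the Mmp12 side and 1.14 (0.73 to 1.56) within the other. Of 15 measured genes of arginine, nitric oxide and polyamine use 2 were higher and none lower, with a median of 0.08 (0.05 in other C1q cells). Nos2, the inducible nitric oxide synthase, stood at 5.07 and 20.3 CPM on 21 and 80 UMIs. Its ratio was 2.00 (1.30 to 2.77) against 1.86 (1.04 to 2.78) in other C1q cells. The arginine transporter Slc7a2 had 0.93 (0.47 to 1.41) against 0.28 (-0.41 to 0.99). Of 31 measured hypoxia and glycolysis genes 4 were higher and none lower (Slc2a1 0.84, Pgk1 0.89, Bnip3 0.73 and Adm 0.91), with a median of 0.43 over the list, and 0.15 for these genes in other C1q cells. Within the sides that median was 0.17 on the Mmp12 side and 0.47 on the F13a1/Cbr2 side. Cd14, a co-receptor for bacterial lipid, rose from 1683 to 2825 CPM (0.75, 0.70 to 0.79), Lgals3 from 3197 to 4873 CPM (0.61, 0.58 to 0.64) and Rgcc from 48.7 to 95.9 CPM (0.98).

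Some MHC class II genes were higher in the NAM library. Of 8 measured 4 were higher in selected macrophages and none lower, with a median of 0.58 against 0.34 for the same genes in other C1q cells. H2-Eb1 rose from 1703 to 2556 CPM (0.59, 0.54 to 0.63), H2-Ab1 from 2180 to 3284 CPM (0.59, 0.55 to 0.63) and H2-DMb1 from 265 to 429 CPM (0.69, 0.58 to 0.81), while H2-Aa (0.58) and Cd74 (0.51) stayed under the fold that was counted. Even so Cd74 in NAM selected macrophages, 13001 CPM, was below its 25637 CPM in untreated other C1q cells. The class II medians within the sides were 0.67 on the Mmp12 side and 0.39 on the other. Interferon gamma response genes had a median of 0.21 in selected macrophages and 0.40 in other C1q cells, with 2 of 28 genes higher, Socs1, a feedback inhibitor of cytokine signaling (0.66), and AW112010 (0.60), and 1 lower, the kinase gene Jak2 (-0.80). Among 34 measured type I interferon genes 4 were higher and none lower: Ifit1 rose from 47.8 to 106 CPM (1.14), with 63.0% of its NAM UMIs in 5 cells and a ratio of 0.51 without the 5 highest cells of each sum, Ifit3 had 0.96, Ifitm1 1.02 and Isg20 0.60. Rrad, a small GTPase, had 0.98 (0.60 to 1.37) on 89 and 167 UMIs, but -0.042 under 1 of the other scores.

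The largest ratios of NAM over untreated among the genes tested were those of hemoglobin and lay in few cells. Hba-a1 (5.42), Hba-a2 (5.52) and Hbb-bs (5.27) were higher in NAM selected macrophages, but 97.4%, 97.5% and 96.8% of their NAM UMIs lay in 5 cells, and without the 5 highest cells of each sum the ratios were 0.50, 0.72 and 0.69. Untreated selected macrophages had a hemoglobin UMI in 20.8% of cells and NAM ones in 29.8%, against 10.2% and 30.2% of lymphocyte cells, and with every cell thinned 6.601% and 12.4% against 6.93% and 17.04%, so the shares of both libraries are at or below the background. None of 13 measured genes of NAD synthesis and use, the pathway that NAM feeds, was called in either direction (median 0.16).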

How the data were processed

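Single-cell 3′ libraries of CD45+ cells from TSA tumors, 1 untreated and 1 NAM, were sequenced by the authors, who used Cell Ranger with the mm10 genome and deposited raw UMI counts per gene and cell. The deposited cells already met the study's limits of 3000 UMIs and 1000 genes, and doublets were not removed here. Cells were classed by the rule given at the start; the members, gene lists and markers were chosen with earlier results of these data known. UMIs were summed per class and library and divided by the total, with Poisson intervals for CPM, Clopper-Pearson intervals for shares and exact conditional binomial intervals for log2 ratios, all at 95%; the interval of a difference of ratios used a normal approximation. Where a sum was 0, 0.5 was added to both for the ratio. One gene of the score and some list genes are not reported here, and the sides of the selected cells were redefined without it after the data were seen. Thinning drew 3000 UMIs per cell (seed 1). Genes were named by rank (10 highest and 10 lowest, 200 UMIs or more, direction kept without the 5 highest cells) or from the lists. Ratios and intervals were tested on simulated data. Python 3.11.15, NumPy 2.4.6 and SciPy 1.17.1 were used. The alternatives changed the cut, the C1q limit, the genes of the score, the depth, the scaling, the UMI minimum, the fold and the cells that enter a sum.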

Additional observations from a re-analysis of the deposited data

Results flagged for a closer look

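S100a8 and S100a9, the chains of the neutrophil and monocyte protein calprotectin, moved in opposite directions with NAM in the 2 classes of cells, a difference that was not tested because each group is 1 library. S100a8 fell from 50.7 to 28.2 CPM in selected macrophages (log2 ratio -0.85) and rose from 9.80 to 32.8 CPM in other C1q cells (1.74), a difference of -2.59. S100a9 fell from 41.5 to 20.0 CPM (-1.05) and rose from 10.4 to 27.5 CPM (1.40), a difference of -2.45. The 5 highest cells held 76.2% and 76.7% of their UMIs in untreated selected macrophages, and without the 5 highest cells of each sum the ratios in selected macrophages were 0.54 and -0.12 and in other C1q cells 0.43 and 0.21.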

How the results depend on the processing

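Each group is 1 library, and depth limits genes under 100 UMIs. The share of selected macrophages stayed lower in NAM under every alternative run for it, from -0.43 to -0.13 on the log2 scale. Counts of called genes, higher and lower added, moved by over 1.5 times only under the next 4 settings. With 20 UMIs or more 761 genes were called between NAM and untreated in selected macrophages and 713 in other C1q cells. With 500 UMIs or more the counts were 85 and 143, and 338 between selected macrophages and other C1q cells in the untreated library, 394 in the NAM library and 229 in both. At a fold of 2 they were 81, 88, 317, 324 and 183. Within the Mmp12 side alone, a setting chosen after seeing the data, 222 genes were called between NAM and untreated, 105 higher and 117 lower, against 97 and 313 in all selected macrophages. Scaling by the median ratio gave 118 higher and 283 lower genes for NAM in selected macrophages. Leaving out the 5 highest cells of each sum gave 240 higher and 406 lower genes for selected over other C1q cells in both libraries. Lower genes were then 762 untreated against 419 and 990 NAM against 492. Those 5 cells are a larger part of the smaller sums of selected macrophages, which tends to lower their ratios by design. The Mmp12 side alone gave 303 lower in both and 699 untreated, and the cause was not tested. For NAM against untreated, Rrad reversed under 1 of the scores that leave out a gene (-0.042), Ednrb within the Mmp12 side (0.31, on few UMIs) and Tnfrsf9 within the F13a1/Cbr2 side (-0.15); the cause was not tested. No paired analysis was possible because each group is 1 library.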
